A study of Mus musculus with 12 samples.

Results

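The transcription factors described here are Irf1, PU.1 and 7 other regulators of white blood cell development, measured in CD71+ bone marrow cells of mice that carry a CD70 transgene, lack interferon-gamma, or both. The 9 members, chosen by name, were Irf1, Irf8, Spi1 (the gene of PU.1), Spib, Id2, Cebpa, Cebpb, Cebpe and Gfi1, and all 9 were among the 19935 genes that the array measured with probe sets of a single gene symbol. Irf1 was measured by 2 probe sets and each other member by 1. Each group held 3 male mice aged 10 to 12 weeks, each on an array of its own. The groups were transgenic mice that also lack Ifng (CD70TG*Ifng-/-), transgenic mice with Ifng intact (CD70TG), Ifng-/- mice without the transgene, and wild type (WT), all bred on a C57BL/6 background and labelled C57BL/6J. Cells were taken from the crushed bones of the hind legs and enriched with an antibody to CD71, the transferrin receptor that red cell precursors carry at high density. The labels give the CD70TG mice as clone F13, so the transgenic effect with Ifng intact rests on that line, and give no clone for the CD70TG*Ifng-/- mice. The sources used here give neither the promoter of the transgene nor the part of Ifng that is deleted.

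Interferon-gamma acts through a receptor of the chains Ifngr1 and Ifngr2, whose signal raises transcription of Irf1 through gamma-activated sites in its promoter. IRF1 then binds interferon response elements in genes of antigen presentation, while IRF8 works with PU.1 and directs progenitors to monocytes and dendritic cells. PU.1 and Spi-B are related ETS factors of myeloid and B cells, the C/EBP proteins and Gfi1 guide the steps of granulocyte maturation, and in red cell precursors PU.1 and GATA1 oppose each other.

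Promoters of 7 of the 9 members were found in a RefSeq promoter table of build GRCm38.p6, 10 promoters in all, each 300 bases long, from 250 bases before to 50 after a transcription start. Both strands were searched for the gamma-activated site TTCNNNGAA, the interferon response element GAAANNGAA, the PU.1 box GAGGAAGT and the C/EBP site TTGCNNAA. Irf1 and Irf8, the interferon regulatory factors among the members, were the members with a gamma-activated site in these windows. The 2 stretches are shown because the groups below differ in the Ifng genotype, and any part of these sites in the results was not tested. In each, the capitals mark the gamma-activated site, the stretch is read on the + strand, and it lies upstream of the gene's first exon, at chr11:53769894-53769962 for Irf1 and at chr8:120736157-120736243 for Irf8.
Irf1: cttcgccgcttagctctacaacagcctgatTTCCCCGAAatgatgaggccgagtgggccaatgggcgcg
Irf8: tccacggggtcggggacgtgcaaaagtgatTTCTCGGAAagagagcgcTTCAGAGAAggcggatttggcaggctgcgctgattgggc
The Irf1 site began at base -90 from the start, and Irf8 held 2 such sites, which do not overlap each other. A gamma-activated site of these letters was in 8.3% of the 32851 promoters of the table, an interferon response element in 8.6%, a PU.1 box in 3.2% and a C/EBP site in 10.8%. A C/EBP site was also found in a promoter of Spib and in one of Gfi1, while the windows searched for Id2, Cebpa and Cebpb held none of the 4 motifs. A match of letters is a description of the sequence and not a measured binding site.

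Values were used as deposited and taken to be log2 intensities. Each probe set's median over the 12 arrays is 0, so every value below is relative to that median and levels cannot be compared between genes. All tests are limma's moderated test on the 12 arrays with 4 group means, with p-values adjusted by Benjamini-Hochberg over the 19935 genes and a threshold of 0.05. SD values are over the 3 mice of a group and SE values come from the fit. With 3 mice a group, the number of arrays limits the precision. In a bulk sample, fewer cells of a type and less RNA per cell cannot be told apart, which holds for every difference below.

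The libraries as a whole set the frame for these genes. In CD70TG against WT, 8.23% of all genes were called higher and 2.7% lower. The shares were 0.156% and 2.35% in CD70TG*Ifng-/- against Ifng-/-, and 0.426% and 0.988% in CD70TG*Ifng-/- against CD70TG. Counts over gene lists below stand beside these shares. Cd70 was 0.26 ± 0.12 (log2 change ± SE) higher in CD70TG than in WT mice with an adjusted p of 0.18, and in CD70TG*Ifng-/- mice it exceeded the Ifng-/- mice by 0.39 ± 0.12 with an adjusted p of 0.135. Averaged over both Ifng genotypes, a comparison described below, the transgene effect on Cd70 was called, at 0.33 ± 0.085 (adjusted p = 0.0324). Ifng differed by -0.10 ± 0.093 between Ifng-/- and WT mice (adjusted p = 0.632), and since the deleted part is not given this does not check the label. Of the 7 red cell precursor markers measured, 1 was called lower in CD70TG than in WT mice, Alas2 (-0.43 ± 0.077, adjusted p = 0.00393), the first enzyme of heme synthesis in red cells, and Gata1, Klf1 and Tfrc (CD71) passed the test in none of the 4 comparisons of groups. All 18 macrophage markers, among them Vcam1, Hmox1 and Mrc1, were called lower in CD70TG than in WT mice, with a median change of -1.87, and all 18 in CD70TG*Ifng-/- than in Ifng-/- mice, with a median of -2.75. Their mean log2 value lay between -1.33 and -1.31 in CD70TG*Ifng-/- arrays, between -1.02 and -0.77 in CD70TG, between 1.19 and 1.56 in Ifng-/- and between 0.77 and 1.47 in WT. Among the Ifng-/- arrays, the mature neutrophil list of 11 genes had a mean of 1.96 in mouse 1, -0.64 in mouse 2 and 0.64 in mouse 3, against 0.98 to 1.25 in WT, so mice 1 and 2 of that group stood apart in opposite directions. CD70TG mouse 3 stood apart too, with a mean of 1.63 over the 6 early granulocyte markers, against 0.49 and 0.41 in CD70TG mice 1 and 2. The counts over gene lists below were therefore also taken without each of these 3 arrays, an alternative chosen after the values were seen. The macrophage counts stayed at 18 in both transgene comparisons without any of them.

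**Figure D1:**
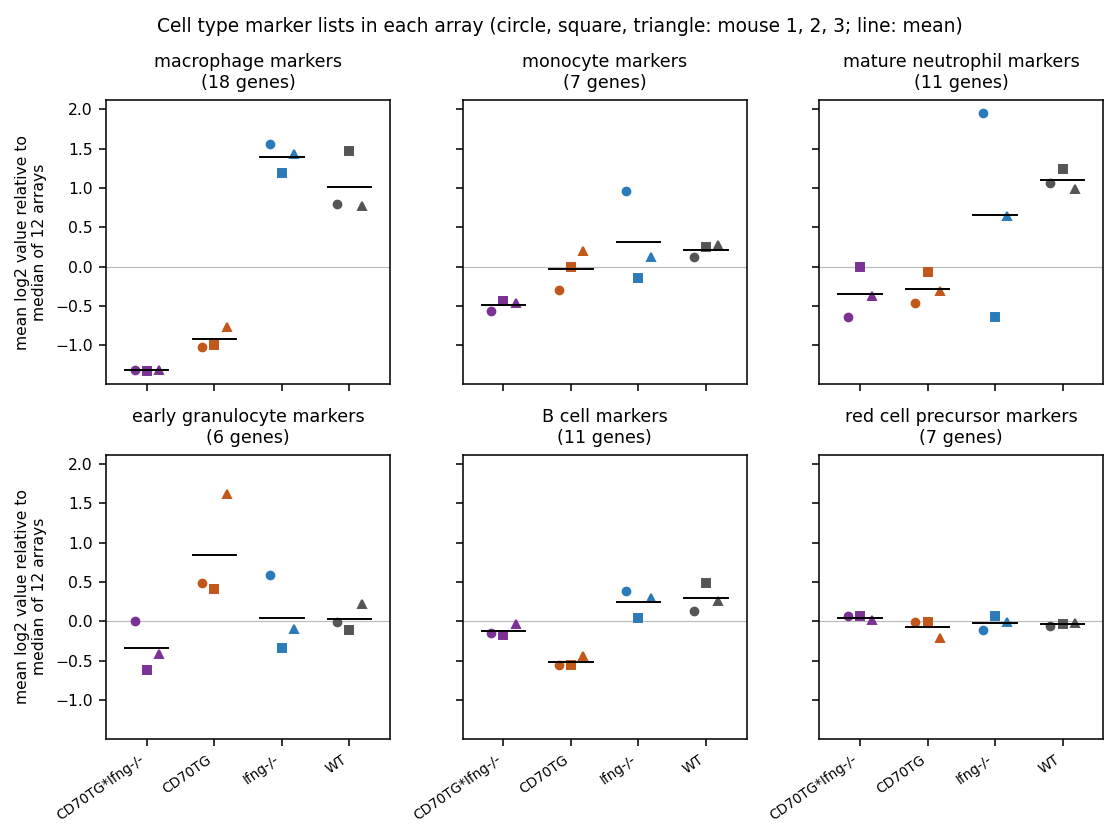
Mean log2 value (relative to the median of 12 arrays) of 6 cell type marker lists, with 1 symbol per mouse, a line at each group's mean, and the groups CD70TG*Ifng-/-, CD70TG, Ifng-/- and WT from left to right. The macrophage list of 18 genes lies below -0.7 in all transgenic arrays and above 0.7 in all others, and Ifng-/- mouse 1 is the highest array for the monocyte and mature neutrophil lists.

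Irf1 was high in CD70TG mice and in no other group. On the average of its 2 probe sets, Irf1 stood at -0.34, -0.019 and -0.30 in CD70TG*Ifng-/- mice, at 0.49, 0.95 and 0.94 in CD70TG mice, at 0.12, -0.23 and -0.11 in Ifng-/- mice and at -0.062, -0.007 and 0.15 in WT mice. The 3 CD70TG arrays lay above all 9 others, and the other groups overlapped. Irf1 rose by 0.77 ± 0.13 in CD70TG against WT, which is 1.70-fold (adjusted p = 0.00284). It was 1.01 ± 0.13 lower in CD70TG*Ifng-/- than in CD70TG mice, or 2.02-fold (adjusted p = 0.000756). The difference in CD70TG*Ifng-/- against Ifng-/- mice was -0.15 ± 0.13 (adjusted p = 0.689), with a 95% interval of -0.43 to 0.13. The group means were -0.22 ± 0.17 in CD70TG*Ifng-/-, 0.79 ± 0.27 in CD70TG, -0.072 ± 0.18 in Ifng-/- and 0.027 ± 0.11 in WT mice (SD, n = 3 each). CD70TG thus ranked highest and CD70TG*Ifng-/- lowest, and the means of the 3 groups other than CD70TG differed from their neighbours in rank by less than the spread.

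The interaction term asks whether the transgene effect itself differed with the Ifng genotype. For Irf1 it was 0.91 ± 0.19 (adjusted p = 0.0265), and 1.61% of all genes were called with a higher and 0.281% with a lower transgene effect when Ifng was intact. Of the 9 members, 1 was called, Irf1. That call was lost when any of 5 arrays was left out, with an adjusted p of 0.0888 without WT mouse 1, 0.0788 without CD70TG mouse 2, 0.0539 without CD70TG mouse 3, 0.0532 without Ifng-/- mouse 3 and 0.0857 without CD70TG*Ifng-/- mouse 3, while the term itself stayed between 0.82 and 1.07. It was also lost with the mouse number as a block (adjusted p = 0.0588).

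The 2 probe sets of Irf1 gave different results. Both are annotated to the gene at chr11:53770014-53778374 (GRCm38.p6), one to the RefSeq transcripts and the other to a single cDNA clone. The probe set of the RefSeq transcripts read -0.73, -0.26 and -0.47 in CD70TG*Ifng-/- mice, 0.96, 1.86 and 1.78 in CD70TG mice, 0.21, -0.20 and -0.11 in Ifng-/- mice and -0.11, 0.11 and 0.35 in WT mice. The CD70TG arrays were again above all others, and the CD70TG*Ifng-/- arrays were below all others. In the fit over 21780 probe sets, it rose by 1.42 ± 0.20 in CD70TG against WT, or 2.67-fold (adjusted p = 0.000954), where 8.36% of probe sets were called higher. It was 2.02 ± 0.20 lower in CD70TG*Ifng-/- than in CD70TG mice, or 4.07-fold (adjusted p = 8.85e-05), where 0.996% of probe sets were called lower. Its interaction term was 1.87 ± 0.29 (adjusted p = 0.00774), where 1.61% of probe sets were called in that direction, and leaving out each array in turn gave adjusted p-values between 0.000199 and 0.032. It was 0.45 ± 0.20 lower in CD70TG*Ifng-/- than in Ifng-/- mice, with an unadjusted p of 0.043 and an adjusted p of 0.396. The clone's probe set stayed between -0.27 and 0.23 in every array and passed no test, with a change of 0.11 ± 0.097 in CD70TG against WT (adjusted p = 0.483). The average of the 2 therefore gives a smaller Irf1 difference than the RefSeq probe set.

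**Figure D2:**
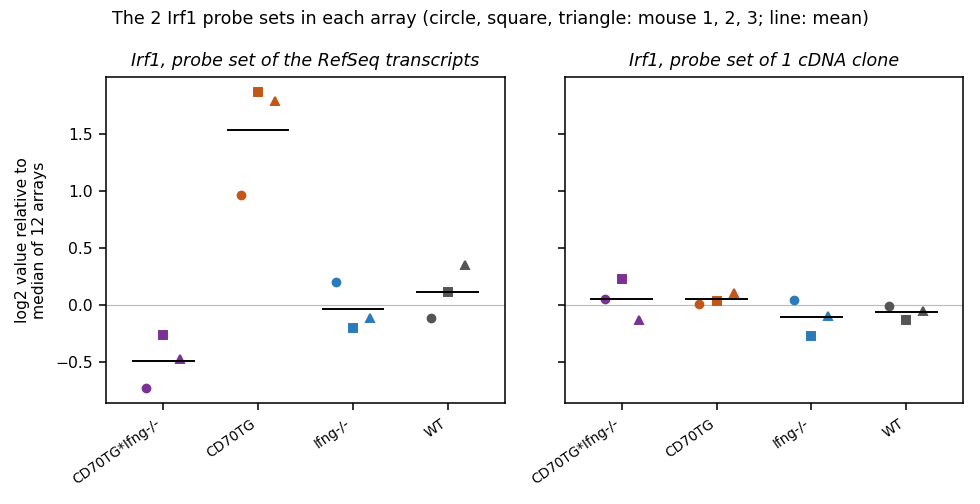
Log2 value (relative to the median of 12 arrays) of the probe set of the Irf1 RefSeq transcripts (left) and of a single cDNA clone (right), with 1 symbol per mouse, a line at each group's mean, and the groups CD70TG*Ifng-/-, CD70TG, Ifng-/- and WT from left to right. The CD70TG arrays stand at 0.96 to 1.86 on the left and at 0.011 to 0.11 on the right.

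Of the 13 measured genes that IRF1 is known to act on or with, 3 were called higher in CD70TG than in WT mice and none lower. Of all genes, 8.23% were called higher and 2.7% lower there, and the median change was 0.10 against -0.023 over all genes. Without CD70TG mouse 3, 4 were called higher, with Irf2 added. Without Ifng-/- mouse 1 or Ifng-/- mouse 2, Cybb was called lower, at -0.97 (adjusted p = 0.016 and 0.0377, against 0.144 with all arrays). Tap1, the peptide transporter of antigen presentation, rose by 1.65 ± 0.15 (adjusted p = 1.84e-05) and Psmb9, an immunoproteasome subunit, by 1.59 ± 0.13 (adjusted p = 1.41e-05). Xaf1, an interferon-induced gene of cell death, rose by 0.60 ± 0.14 (adjusted p = 0.0158). Of the 13, 4 were called lower and none higher in CD70TG*Ifng-/- than in CD70TG mice, with Tap1 at -2.04 ± 0.15, Psmb9 at -1.98 ± 0.13, Xaf1 at -1.06 ± 0.14 and Casp1, the inflammasome caspase, at -0.94 ± 0.16. Against Ifng-/- mice, in CD70TG*Ifng-/- mice Casp1 fell by 0.86 ± 0.16 (adjusted p = 0.00651) and Irf9, a subunit of the type I interferon factor ISGF3, fell by 0.51 ± 0.10 (adjusted p = 0.0116). Without Ifng-/- mouse 1 the Irf9 call was lost (adjusted p = 0.0614), and without Ifng-/- mouse 2 the number called lower in that comparison was 4. The interaction was called positive for 5 of the 13, Psmb9, Tap1, Xaf1, Casp1 and Irf9, and negative for none, but without CD70TG mouse 3 Casp1 (adjusted p = 0.0523) and without Ifng-/- mouse 1 Irf9 (adjusted p = 0.0658) lost that call. Ciita, the switch of MHC class II genes, changed by 0.098 ± 0.11 in CD70TG against WT (adjusted p = 0.600). The transgene effect averaged over both Ifng genotypes, described below, was called higher for 2 of the 13 and lower for 2. The lower ones were Cybb, at -1.26 (adjusted p = 0.017), and Il15, at -0.33 (adjusted p = 0.0365). The Il15 call was lost without CD70TG mouse 3 or Ifng-/- mouse 1. The mean of the list was -0.27 to -0.19 in CD70TG*Ifng-/- arrays, 0.20 to 0.38 in CD70TG, -0.077 to 0.30 in Ifng-/- and 0.002 to 0.17 in WT.

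Irf8 followed another pattern, with its lowest values in CD70TG*Ifng-/- mice. It read -0.47, -0.37 and -0.58 in CD70TG*Ifng-/- mice, -0.23, -0.073 and 0.27 in CD70TG mice, 0.61, 0.016 and 0.16 in Ifng-/- mice and -0.016, 0.31 and 0.14 in WT mice. The CD70TG*Ifng-/- arrays lay below all others, the other groups overlapped, and Ifng-/- mouse 1 was the highest array. Irf8 fell by 0.74 ± 0.15 in CD70TG*Ifng-/- against Ifng-/-, or 1.67-fold (adjusted p = 0.0136). This call was lost without CD70TG*Ifng-/- mouse 3, at -0.68 with an adjusted p of 0.083, and without Ifng-/- mouse 1 the change was -0.56 with an adjusted p of 0.0489. The CD70TG*Ifng-/- mice were 0.47 ± 0.15 lower than CD70TG mice without passing the test (adjusted p = 0.196), CD70TG differed from WT by -0.15 ± 0.15 (adjusted p = 0.553), and the interaction was 0.59 ± 0.21 (adjusted p = 0.152). Array weights called the first of these, at -0.48 (adjusted p = 0.00293), and the interaction, at 0.59 (adjusted p = 0.0327). The monocyte marker list moved with Irf8, at -0.56 to -0.43 in CD70TG*Ifng-/- arrays and at 0.96, -0.14 and 0.13 in Ifng-/- mice 1, 2 and 3, and its part in the Irf8 result was not tested.

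Of the 6 other measured interferon regulatory factors, 1 was called lower in CD70TG than in WT mice, Irf4, a factor of B cells and plasma cells, which fell by 0.65 ± 0.12 (adjusted p = 0.00402). Another 2 were called lower in CD70TG*Ifng-/- than in Ifng-/- mice. Irf7, the factor that amplifies type I interferon, fell by 0.98 ± 0.14 (adjusted p = 0.000667), and the second was Irf9, which, like Irf2, is also on the IRF1 list. The interaction was called for Irf7 at 0.90 ± 0.20 (adjusted p = 0.0369) and for Irf9 at 0.63 ± 0.14 (adjusted p = 0.0414), and for neither without Ifng-/- mouse 1. Irf2, a repressor that binds the sites of IRF1, was 0.31 ± 0.12 higher in CD70TG than in WT mice with an adjusted p of 0.109. It was called higher there without CD70TG mouse 3, at 0.42 (adjusted p = 0.0277). Of the 4 measured genes of interferon-gamma receptor signalling, none was called in CD70TG against WT, while Ifngr1 (-0.93 ± 0.19, adjusted p = 0.0167) and Ifngr2 (-0.79 ± 0.19, adjusted p = 0.0352) fell in CD70TG*Ifng-/- against Ifng-/- mice. Both of these calls were lost without Ifng-/- mouse 1, with adjusted p-values of 0.0614 and 0.0874.

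Spi1, the gene of PU.1, was lower in transgenic mice on average, and whether it passed the test in CD70TG*Ifng-/- against Ifng-/- depended on the processing. It read -0.34, -0.16 and -0.35 in CD70TG*Ifng-/- mice, -0.23, -0.12 and 0.13 in CD70TG mice, 0.95, -0.049 and 0.30 in Ifng-/- mice and 0.049, 0.36 and 0.23 in WT mice. CD70TG*Ifng-/- arrays all lay below the Ifng-/- arrays, of which mouse 1 was far above the other 2. The change was -0.69 ± 0.19 in CD70TG*Ifng-/- against Ifng-/- (adjusted p = 0.0782) and -0.28 ± 0.19 in CD70TG against WT (adjusted p = 0.353). Without Ifng-/- mouse 2 the first of these was -0.91 with an adjusted p of 0.00372, and without Ifng-/- mouse 1 it was -0.41 with an adjusted p of 0.22. With all arrays kept, it was called with quantile normalization, at -0.53 (adjusted p = 0.0297), and with array weights, at -0.75 (adjusted p = 0.00221).

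Many genes that PU.1 is known to activate were called lower in the transgenic mice. Of 21 measured, 9 were lower and none higher in CD70TG than in WT mice, where 2.7% of all genes were called lower and 8.23% higher. The median change was -0.69 against -0.023 over all genes. In CD70TG*Ifng-/- against Ifng-/- mice, 10 were lower and none higher, where 2.35% of all genes were called lower and 0.156% higher. The median there was -1.24 against 0.038. Without CD70TG mouse 3, Ifng-/- mouse 1 or Ifng-/- mouse 2, these counts were 10, 15 and 13 in CD70TG against WT and 10, 10 and 15 in CD70TG*Ifng-/- against Ifng-/-, and each included all those called with all arrays. Csf1r, the receptor of the macrophage growth factor, changed by -0.70 ± 0.13 in CD70TG against WT and by -1.68 ± 0.13 in CD70TG*Ifng-/- against Ifng-/-. Adgre1, which encodes the macrophage antigen F4/80, changed by -1.50 ± 0.20 and -2.73 ± 0.20 in the same comparisons, and Fcer1g, a signalling chain of Fc receptors, by -1.20 ± 0.21 and -2.36 ± 0.21. Ctss, a lysosomal protease of antigen processing, changed by -2.65 ± 0.22 in CD70TG*Ifng-/- against Ifng-/- and by -1.63 ± 0.22 in CD70TG*Ifng-/- against CD70TG mice. Ctss, Csf2rb and Fcer1g were the 3 of the 21 lower in CD70TG*Ifng-/- than in CD70TG mice, of which 1 was called without CD70TG mouse 3. The interaction was called positive for 3, Ctss, Csf1r and Adgre1, with a median over the 21 of 0.48. Without CD70TG mouse 3, Ifng-/- mouse 1 or Ifng-/- mouse 2, that count was 2, 2 and 4, and the median was 0.34, 0.04 and 0.65. Of the 21 genes, 5 also stand in the marker lists of macrophages, monocytes or neutrophils, and all 18 macrophage markers were lower in the same comparisons, whose part in the count was not tested.

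Spib, which B cells and plasmacytoid dendritic cells express, was lowest in CD70TG mice. It read -0.16, -0.12 and 0.074 in CD70TG*Ifng-/- mice, -0.57, -0.57 and -0.44 in CD70TG mice, 0.044, -0.044 and 0.34 in Ifng-/- mice and 0.098, 0.86 and 0.14 in WT mice. The CD70TG arrays lay below all others, and WT mouse 2 was far above the rest of its group. Spib fell by 0.90 ± 0.16 in CD70TG against WT, or 1.86-fold (adjusted p = 0.00405), and leaving out each array in turn gave changes from -1.03 to -0.65 with adjusted p-values up to 0.0204. The CD70TG*Ifng-/- mice were 0.46 ± 0.16 higher than CD70TG mice (adjusted p = 0.257), without overlap between the groups. That difference was called with array weights, at 0.59 (adjusted p = 0.00305), and in a fit of these groups alone (adjusted p = 0.0243). Leaving out each array in turn gave it adjusted p-values from 0.0431 to 0.58. The change in CD70TG*Ifng-/- against Ifng-/- was -0.18 ± 0.16 (adjusted p = 0.689), and the interaction was -0.71 ± 0.23 (adjusted p = 0.118). Array weights called the interaction, at -0.77 (adjusted p = 0.0256).

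The B cell markers moved with Spib. Of 11 measured, 10 were called lower in CD70TG than in WT mice, led by Cd79a at -1.53 ± 0.15 (adjusted p = 4.61e-05), and 2 in CD70TG*Ifng-/- than in Ifng-/- mice. The first count stayed at 10 without any 1 of the 3 arrays that stand apart. The second was 2 without CD70TG mouse 3, 1 without Ifng-/- mouse 1 and 6 without Ifng-/- mouse 2. The interaction was called negative for 2 of the 11, and for 1 without any 1 of these arrays. Their mean was -0.17 to -0.031 in CD70TG*Ifng-/- arrays, -0.55 to -0.44 in CD70TG, 0.048 to 0.39 in Ifng-/- and 0.13 to 0.49 in WT, the highest of them WT mouse 2. Of the 6 plasmacytoid dendritic cell markers measured, 2 were called lower in CD70TG than in WT mice. The part of either cell type in the Spib result was not tested.

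On the averages per gene, Id2 carried the largest difference among the 9 members in both transgene comparisons. In CD70TG against WT, the RefSeq probe set of Irf1 alone changed more, at 1.42. Id2 lacks a DNA-binding region and holds E proteins inactive, and it is known from innate lymphoid and dendritic cells. It read -0.86, -0.91 and -0.75 in CD70TG*Ifng-/- mice, -0.68, -0.47 and -0.36 in CD70TG mice, 1.46, 0.48 and 1.06 in Ifng-/- mice and 0.52, 0.93 and 0.36 in WT mice. All 6 transgenic arrays were below all 6 arrays without the transgene, and the CD70TG*Ifng-/- arrays were below the CD70TG arrays. Id2 fell by 1.84 ± 0.19 in CD70TG*Ifng-/- against Ifng-/-, or 3.58-fold (adjusted p = 4.62e-05), and by 1.10 ± 0.19 in CD70TG against WT, or 2.15-fold (adjusted p = 0.00327). Both calls held when each array was left out in turn. The difference between these effects, the interaction, was 0.74 ± 0.27 with an adjusted p of 0.161. The interaction was called with array weights, at 0.76 (adjusted p = 0.0273), and without Ifng-/- mouse 2, at 0.997 (adjusted p = 0.033). Without Ifng-/- mouse 1 it was 0.51 (adjusted p = 0.225). The group means of Id2 were -0.84 ± 0.082 in CD70TG*Ifng-/-, -0.50 ± 0.16 in CD70TG, 1.00 ± 0.50 in Ifng-/- and 0.60 ± 0.29 in WT mice (SD, n = 3 each), with CD70TG*Ifng-/- lowest and Ifng-/- highest. The steps between groups with the same transgene status, -0.34 ± 0.19 in CD70TG*Ifng-/- against CD70TG (adjusted p = 0.560) and 0.40 ± 0.19 in Ifng-/- against WT (adjusted p = 0.372), did not pass the test. The macrophage markers separate the transgenic from the other arrays in the same way as Id2, and their part in the Id2 result was not tested.

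With all arrays and the settings above, the C/EBP factors and Gfi1 passed the test in no comparison. Cebpa, which commits progenitors to granulocytes and monocytes, read -0.29, -0.14 and -0.081 in CD70TG*Ifng-/- mice, -0.43, -0.12 and 0.067 in CD70TG mice, 0.11, 0.014 and 0.10 in Ifng-/- mice and -0.004, 0.004 and 0.084 in WT mice. Its CD70TG*Ifng-/- arrays were all below the Ifng-/- arrays, at a difference of -0.25 ± 0.11 (adjusted p = 0.351). Cebpe, the factor of the late granulocyte stages, read -0.22, 0.076 and -0.043 in CD70TG*Ifng-/- mice, -0.22, -0.093 and -0.067 in CD70TG mice, 0.44, -0.42 and 0.043 in Ifng-/- mice and 0.16, 0.28 and 0.12 in WT mice. Its CD70TG arrays were all below the WT arrays, at a difference of -0.31 ± 0.16 (adjusted p = 0.226, but 0.031 in a fit of these 2 groups alone), and its Ifng-/- arrays spread over the whole range. Cebpb, induced in macrophages and in emergency granulocyte production, read -0.19, 0.009 and -0.10 in CD70TG*Ifng-/- mice, 0.002, -0.047 and 0.029 in CD70TG mice, 0.48, -0.18 and 0.20 in Ifng-/- mice and -0.002, -0.010 and 0.044 in WT mice. It was highest in Ifng-/- mouse 1 and lay within 0.05 of the median in every CD70TG and WT array. Its change in CD70TG*Ifng-/- against Ifng-/- was -0.26 with an adjusted p of 0.417. That change was called without Ifng-/- mouse 2, at -0.43 (adjusted p = 0.0144), and with array weights, at -0.32 (adjusted p = 0.0347), and was -0.10 without Ifng-/- mouse 1. Gfi1, a repressor that early granulocytes need, stayed between -0.20 and 0.12 in all 12 arrays, and its 95% interval in CD70TG against WT was -0.19 to 0.18.

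Of the 15 measured genes that the C/EBP factors and Gfi1 are known to control in granulocytes, few were called, and the counts changed with single arrays. In CD70TG against WT, 2 genes of early granules and progenitors were called higher, Prtn3 (1.08 ± 0.28, adjusted p = 0.0265) and Ms4a3 (1.03 ± 0.29, adjusted p = 0.0391), and the late gene Mmp8 was called lower (-1.76 ± 0.49, adjusted p = 0.0355). Without CD70TG mouse 3 limma called none of these 3, with Prtn3 at 0.69 (adjusted p = 0.0538), Ms4a3 at 0.57 (adjusted p = 0.0708) and Mmp8 at -1.72 (adjusted p = 0.0609). Without Ifng-/- mouse 1, and likewise without Ifng-/- mouse 2, 4 of the 15 were called higher and 8 lower. Against CD70TG mice, 4 early genes were lower, Ctsg (-1.58 ± 0.32), Prtn3 (-1.29 ± 0.28), Ms4a3 (-1.34 ± 0.29) and Mpo (-1.50 ± 0.34), in CD70TG*Ifng-/- mice, of which Ctsg alone was called without CD70TG mouse 3 (-1.09, adjusted p = 0.0355). None of the 15 was called in CD70TG*Ifng-/- against Ifng-/-, where the list's mean was -0.37 to -0.25 in CD70TG*Ifng-/- arrays and -0.53 to 1.30 in Ifng-/- arrays, while without Ifng-/- mouse 2 the number called lower there was 8. Of the 15, 13 also stand in the early granulocyte or mature neutrophil marker lists, whose part in these counts was not tested.

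Set against all genes, the count of members called was 1 higher and 2 lower of 9 in CD70TG against WT, where 8.23% of genes were called higher and 2.7% lower. In CD70TG*Ifng-/- against Ifng-/-, 2 of 9 were lower and none higher, where 0.156% of genes were called higher and 2.35% lower. In CD70TG*Ifng-/- against CD70TG, Irf1 was the 1 member called lower and none was higher, where 0.426% of genes were called higher and 0.988% lower. Between Ifng-/- and WT mice, limma called none of the 9 and none had an unadjusted p under 0.05, where the share of genes called was 0.00502% for higher and 0% for lower values. The median change of the members was -0.19 in CD70TG against WT, against -0.023 over all genes, and -0.25 in CD70TG*Ifng-/- against Ifng-/-, against 0.0385. Groups did not overlap for 1 higher and 3 lower members in CD70TG against WT (17.6% and 13.5% of all genes), for 4 lower members in CD70TG*Ifng-/- against Ifng-/- (9.32% of all genes higher and 7.09% lower), for none in Ifng-/- against WT (9.43% and 9.17%) and for 1 higher and 3 lower in CD70TG*Ifng-/- against CD70TG (9.31% and 8.27%). These comparisons share groups and are not independent of each other.

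**Figure D3:**
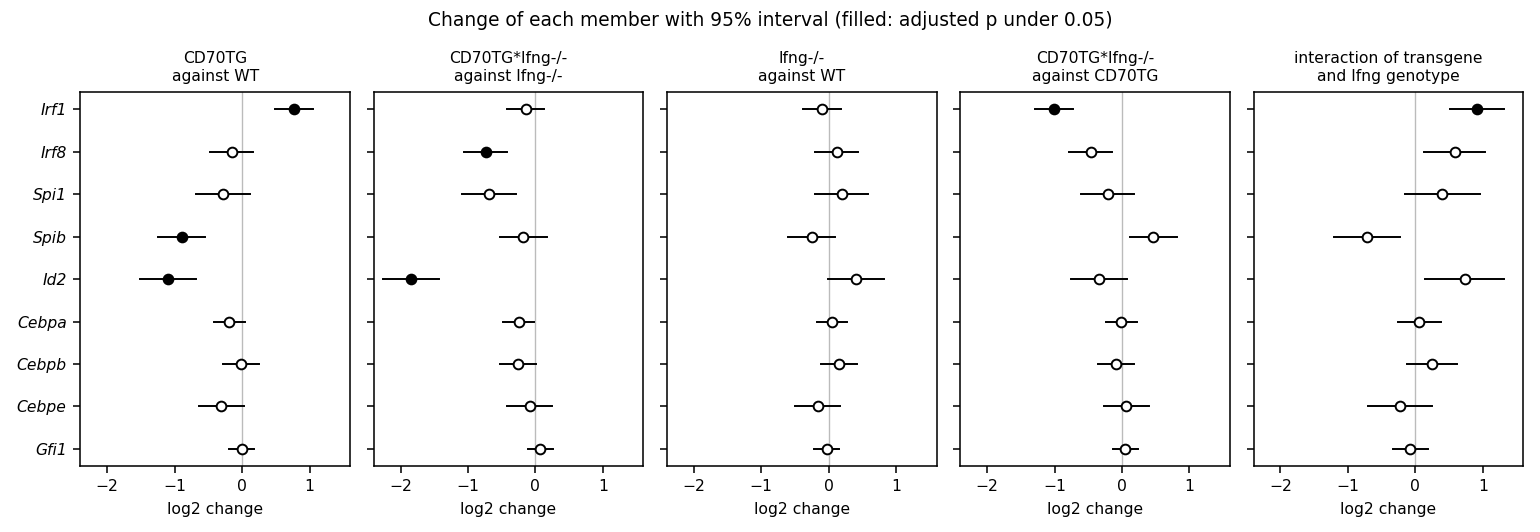
Log2 change of each of the 9 members (rows) in 5 comparisons (panels), with 95% intervals and filled circles where the adjusted p was under 0.05. The filled circles are Irf1, Spib and Id2 in CD70TG against WT, Irf8 and Id2 in CD70TG*Ifng-/- against Ifng-/-, and Irf1 in CD70TG*Ifng-/- against CD70TG and in the interaction.

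The transgene effect averaged over both Ifng genotypes sets 6 transgenic arrays against 6 without the transgene, and was added after the values had been seen. It was called lower for 4 of 9 members, where 3.58% of all genes were called lower and 3.41% higher, at -1.47 ± 0.14 for Id2 (adjusted p = 9.31e-06), -0.54 ± 0.12 for Spib (adjusted p = 0.0118), -0.45 ± 0.11 for Irf8 (adjusted p = 0.0212) and -0.49 ± 0.13 for Spi1 (adjusted p = 0.0391). Id2 and Spib kept this call when each array was left out in turn. Id2 was called in both transgene comparisons on their own. Spib fell by 0.90 in CD70TG against WT but changed by -0.18 in CD70TG*Ifng-/- against Ifng-/- (adjusted p = 0.689), so its average rests mostly on the mice with Ifng intact. The adjusted p reached 0.0618 for Irf8, whose call was lost without any of 5 arrays, WT mouse 2, CD70TG mice 1 and 2 and CD70TG*Ifng-/- mice 1 and 3. It reached 0.0999 for Spi1, whose call was lost without any of 8 arrays, the WT mice, CD70TG mice 1 and 2, Ifng-/- mouse 3 and CD70TG*Ifng-/- mice 1 and 3. Irf1 averaged 0.31 ± 0.093 higher (adjusted p = 0.0598) and Cebpa 0.22 ± 0.075 lower (adjusted p = 0.0967). Leaving out 1 array could also add a call. The adjusted p then ran from 0.0132 to 0.153 for Irf1 and from 0.0229 to 0.231 for Cebpa. It ran from 0.0284 to 0.791 for Cebpb and from 0.0199 to 0.694 for Cebpe. Array weights called Irf1 (adjusted p = 0.00789), Cebpa (0.0335) and Cebpb (0.0443).

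Among 29 other measured transcription factors of myeloid and lymphoid cells, 5 were called lower in CD70TG than in WT mice and none higher. Of all genes, 2.7% were called lower and 8.23% higher there, and the median change of the 29 was -0.16. Spic, the ETS factor that iron-recycling macrophages need, changed by -1.67 ± 0.13 (adjusted p = 7.81e-06), and by -2.27 ± 0.13 in CD70TG*Ifng-/- against Ifng-/- (adjusted p = 1.73e-07). The B cell factors Pax5 (-0.49 ± 0.092) and Ebf1 (-0.84 ± 0.19) fell in CD70TG against WT, as did Ets1 (-0.58 ± 0.14) and Bach2 (-0.39 ± 0.11). Without any 1 of the 3 arrays that stand apart, 8 were called lower and 1 higher, the 5 among them. Of the 29, 5 also stand in the marker lists of B cells or dendritic cells, Pax5 and Ebf1 among them, and B cell and macrophage markers were lower in the same comparison, whose part in the count was not tested. Of the 29, 3 were lower in CD70TG*Ifng-/- than in Ifng-/- mice, Spic, Zeb2 (-0.57 ± 0.10) and Fos (-0.84 ± 0.21), but 6 without Ifng-/- mouse 2, and Fos lost its call without CD70TG mouse 3 (adjusted p = 0.0514) or Ifng-/- mouse 1 (adjusted p = 0.118). Jun was the 1 factor higher in CD70TG*Ifng-/- than in CD70TG mice (0.80 ± 0.15, adjusted p = 0.0148), with an adjusted p of 0.0615 without CD70TG mouse 3. With all arrays, Klf4, a factor of monocytes, Cebpd, a further C/EBP protein, and Gfi1b, the relative of Gfi1 in red cell precursors, passed no test. Their changes in CD70TG against WT were -0.26 ± 0.11, -0.37 ± 0.12 and 0.18 ± 0.10. In that comparison Klf4 was called lower without CD70TG mouse 3, at -0.37 (adjusted p = 0.0372). Cebpd was called lower there without Ifng-/- mouse 1 (adjusted p = 0.0258) and without Ifng-/- mouse 2 (adjusted p = 0.0493).

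The members fell into different patterns over the 12 arrays, which share 4 groups and so are not independent points. Irf8 and Spi1 ran most alike, with a Pearson r of 0.93, and Spi1 also ran with Id2 at 0.88 and with Cebpb at 0.87. Irf1 stood apart, at 0.08 with Spi1, 0.31 with Irf8 and -0.60 with Spib. Of all genes, Irf1 was most like Nlrc5 (r = 0.975), the activator of MHC class I genes, Gbp4 (0.974), an interferon-induced GTPase, and Csf2rb2 (0.971). Spib was most like Vpreb3 (0.963), a gene of B cell precursors, Arntl (0.934) and Ighm (0.927), the heavy chain of immunoglobulin M. Id2 was most like Pilrb1 (0.985), Lpcat2 (0.983) and Cfp (0.983), which encodes properdin, and Spi1 like Cpne3 (0.986), Iqgap1 (0.981) and Dock2 (0.981). Irf8 was most like Actr3 (0.981), Cyrib (0.975) and Pld4 (0.973). Cebpe was most like the neutrophil genes Chil3 (0.961) and Ltf (0.957) and like Tpm4 (0.954), and Cebpa like Ppm1h (0.935), Basp1 (0.930) and Dusp3 (0.918). The highest r for Cebpb was 0.947, with Fmnl1, and for Gfi1 0.894, with Trex1.

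**Figure D4:**
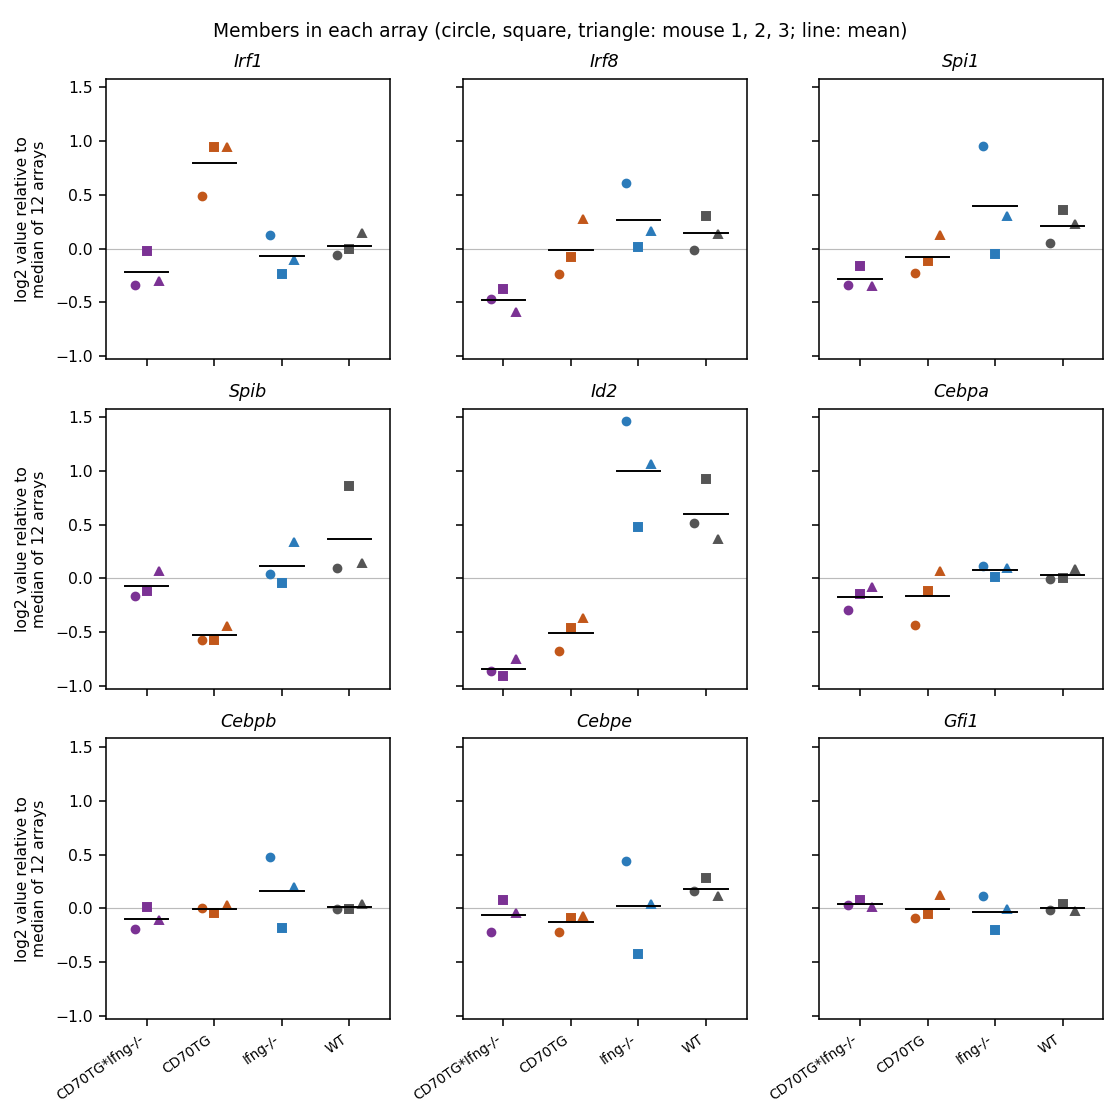
Log2 value (relative to the median of 12 arrays) of the 9 members, with 1 symbol per mouse, a line at each group's mean, and the groups CD70TG*Ifng-/-, CD70TG, Ifng-/- and WT from left to right. Irf1 is high in CD70TG, Spib is low in CD70TG, and Id2 is low in both transgenic groups.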

How the data were processed

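CD71+ bone marrow cells of 12 mice were hybridised to 1-colour whole-transcript Affymetrix arrays. The authors deposited values from RMA (background correction, scaling between arrays and a summary per probe set), per the submitters' processing notes, and its version is not given in the sources used here. That the values are on the log2 scale was taken from RMA's usual output. Every probe set had a median of 0 over the arrays (within 5e-07), so absolute levels are not held, and all 10 member probe sets fell in the class below a log2 level of 8, read from the rounding of the deposited values (tolerance 0.1 of a rounding step). Of 28815 probe sets, 21780 had 1 gene symbol in GEO's platform annotation, 1605 several and 5430 none, and only those with 1 were used. Probe sets of a gene were averaged, giving 19935 genes. limma 3.58.1 in R 4.3.3 fitted 4 group means without a block, and the procedure was tested on simulated data.

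The members and gene lists were chosen with earlier results of these data known. The text names the members, the 3 genes most like each, up to 4 genes of smallest p from a list in a comparison, genes set by name and, where a list holds few calls, each of them. Some genes set by name are not reported here. The averaged transgene effect, the separate tests of the Irf1 probe sets under alternatives and the list counts without single arrays were added after the values were seen. The labels state no pairing of mouse numbers between groups, and the main fit used none. Mice of the same number in different groups had an r of deviations from the group means of -0.401 to 0.311 (18 pairs, 6 above 0.1). With 3 mice a group and single arrays that stand apart, these values cannot exclude a pairing. CD70TG*Ifng-/- mice were not compared with WT. Alternatives tried were quantile normalization, centring of arrays or level classes, array weights, a robust prior, fits of the compared groups alone, a replicate block, single probe sets, and leaving out arrays.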

Additional observations from a re-analysis of the deposited data

Results flagged for a closer look

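The effect of the transgene on Irf1 differed between mice with and without Ifng, by a test of the difference itself. The interaction was 0.91 on the log2 scale, with a change of 0.77 in CD70TG against WT and of -0.15 in CD70TG*Ifng-/- against Ifng-/-. All 3 CD70TG arrays lay above the WT arrays, while the CD70TG*Ifng-/- and Ifng-/- arrays overlapped. With all arrays the adjusted p was 0.0265, and the call was lost without any of 5 arrays and with the replicate block (adjusted p = 0.0588). The difference came from the probe set of the RefSeq transcripts, at 1.87, and not from that of the cDNA clone, at -0.044.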

How the results depend on the processing

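The calls of Irf1, Spib and Id2 in CD70TG against WT, of Id2 in CD70TG*Ifng-/- against Ifng-/- and of Irf1 in CD70TG*Ifng-/- against CD70TG held whichever array was left out. For Irf1 the average over probe sets limits the size, since the clone's probe set alone gave 0.158 in CD70TG*Ifng-/- against Ifng-/-, 0.000574 in CD70TG*Ifng-/- against CD70TG and -0.0436 for the interaction. With 1 array left out, 1 to 4 members were called in CD70TG*Ifng-/- against Ifng-/-, 1 to 2 in CD70TG*Ifng-/- against CD70TG, 0 to 2 for the interaction and 2 to 6 for the averaged transgene effect. Over all genes the calls were then 853 to 2721 in CD70TG against WT (2179 with all arrays), 297 to 868 in CD70TG*Ifng-/- against Ifng-/- (499), 1 to 42 in Ifng-/- against WT (1), 136 to 365 in CD70TG*Ifng-/- against CD70TG (282), 82 to 711 for the interaction (377) and 772 to 2656 for the averaged effect (1392). Array weights raised the calls to 5337, 1439, 7, 3519, 2040 and 4503 in the same order, and the members called to 4 in CD70TG*Ifng-/- against Ifng-/-, 3 in CD70TG*Ifng-/- against CD70TG, 4 for the interaction and 7 for the averaged effect. Leaving out CD70TG mouse 3 and Ifng-/- mouse 2 together, an alternative chosen with earlier results known, gave 3686, 1048, 4 and 3693 calls in CD70TG against WT, CD70TG*Ifng-/- against Ifng-/-, Ifng-/- against WT and the averaged effect, and 175 for the interaction, with 4 members in CD70TG*Ifng-/- against Ifng-/- and 7 in the averaged effect. In Ifng-/- against WT, 5 genes were called with quantile normalization and 2 in a fit of these groups alone, and that kind of fit called 2 members in CD70TG*Ifng-/- against CD70TG. With the replicate block, the interaction was called for 0 members and 128 genes, and Irf1 had an adjusted p of 0.0588. The averaged effect of Spi1 lost its call with the block (adjusted p = 0.0719) and with the robust prior (adjusted p = 0.0578), and the block changed no other call of a member.

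For Irf1, the change in CD70TG*Ifng-/- against CD70TG and the interaction, both called, changed sign on the clone's probe set, as given above. The other sign changes touched values that passed no test with all arrays. Centring within level classes gave 0.0058 for Cebpb and 0.017 for Gfi1 in CD70TG against WT, and array weights gave 0.035 for Cebpa in CD70TG*Ifng-/- against CD70TG and -0.0086 for Gfi1 in the averaged effect. Without CD70TG mouse 3 and Ifng-/- mouse 2, Gfi1 was at -0.012 in CD70TG*Ifng-/- against Ifng-/-, 0.053 in Ifng-/- against WT and -0.041 in the averaged effect, Cebpe at 0.060 in Ifng-/- against WT, and Cebpa at 0.105 in CD70TG*Ifng-/- against CD70TG and -0.026 in the interaction. With 1 array left out, Cebpb lay between -0.033 and 0.0047 and Gfi1 between -0.070 and 0.037 in CD70TG against WT. In CD70TG*Ifng-/- against Ifng-/-, Cebpe lay between -0.31 and 0.13 and Gfi1 between -0.012 and 0.15. In Ifng-/- against WT, the ranges were -0.054 to 0.24 for Irf8, -0.086 to 0.42 for Spi1, -0.0035 to 0.33 for Cebpb, -0.37 to 0.060 for Cebpe and -0.10 to 0.053 for Gfi1. In CD70TG*Ifng-/- against CD70TG they were -0.15 to 0.11 for Cebpa and -0.0047 to 0.14 for Cebpe, for the interaction -0.057 to 0.19 for Cebpa and -0.15 to 0.0064 for Gfi1, and for the averaged effect -0.0084 to 0.070 for Gfi1. The cause of these changes was not tested. In all, 1038 recomputed changes of members kept direction and side of the threshold, 28 moved past it, 23 moved below it and 33 changed sign. The planned filter on dim genes was not run, because all 10 member probe sets lie in the class it removes, and signal over background was not analysed here, which limits what small changes can show. Genes at or above a log2 level of 8 had a median change of 0.19 in CD70TG against WT, against -0.0406 for the others.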
